A study of Mus musculus with 9 samples.

Results

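The genes described here build the release machinery of the synapse and the scaffold on its receiving side, measured in the cerebellum of newborn mice. The list names 40 genes, of which 24 are presynaptic and 16 postsynaptic. It was set by gene symbol, and each gene was read from the probe set with its single symbol and the highest mean log2 intensity over all 9 arrays. In all, 37 of the 40 were measured, 23 presynaptic and 14 postsynaptic, among 19147 genes tested. No probe set carried the symbol Snap25, Shank2 or Gphn alone, so these 3 were not analysed here.

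The series holds 9 arrays of total RNA from C57BL/6 mice at postnatal day 5, with 3 mice in each of 3 groups. Judged by Xist against Y-linked genes, 1 SmoA2, 1 Smo/Smo and 2 wild type mice were female, so sex was not balanced between the groups. The SmoA2 mice carry a transgene for the SmoA2 form of Smoothened, which keeps the Sonic hedgehog (Shh) pathway active without its ligand. The second group is labelled only Smo/Smo. The design text describes SmoA1, SmoA2 and wild type cerebella, so by elimination the Smo/Smo mice are read here as its SmoA1 line. Both transgenes are driven by a fragment of the Neurod2 (ND2) promoter that acts in granule neuron precursors, and the wild type mice carry neither. The labels name the tissue brain and the design text names it cerebellum. The SmoA2 and wild type animal codes share a prefix that the Smo/Smo codes lack, so the source of the Smo/Smo mice and their genotype cannot be told apart.

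At a chemical synapse, transmitter is packed into vesicles that dock at the active zone of the axon terminal. Calcium sensed by synaptotagmins triggers fusion through the SNARE proteins syntaxin, SNAP-25 and synaptobrevin, and complexins clamp and assist that step. Across the cleft, PSD-95 family proteins, Shank and Homer hold receptors in place, neuroligins bridge the cleft, and CaMKII is a calcium-dependent kinase that is abundant in the postsynaptic density. At postnatal day 5 the mouse cerebellum is still forming: granule neuron precursors divide in the outer layer while Purkinje cells extend dendrites and receive their early synapses.

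Values are log2 of the deposited intensity, and a gene counts as called where limma gave it an adjusted p (Benjamini-Hochberg, all genes) below 0.05. Between arrays the median intensity ran from 91.0 to 95.1. The median standard deviation of a synaptic gene within a group was 0.09 in SmoA2, 0.05 in Smo/Smo and 0.05 in wild type on the log2 scale. Levels of 864 olfactory receptor genes, which served as a gauge of background, had a 95th percentile of 4.996. No group mean of a measured member lay at or under this level, and Shank3 came nearest with a wild type mean of 5.02. Another gauge was less lenient: Y-linked genes on the arrays of female mice read up to 5.57. All group means of Shank1 and Shank3 lay under that value. Background in what follows means the olfactory receptor level. Cerebellar identity was checked on Zic1, a granule lineage factor, whose group means were 13.2 in SmoA2, Smo/Smo and wild type alike, and on the Purkinje genes Calb1 and Pcp2. Those were all well above background, while 5 of 9 forebrain neuron genes lay at or under it in each group. Wild type replicate 3 stood apart in choroid plexus genes: its transthyretin (Ttr) value was 4.95, against 11.4 and 11.3 in the other wild type arrays.

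Few of the synaptic genes passed the test in any comparison. In SmoA2 against wild type, 1 member rose (Syt4), 1 fell (Camk2a) and 35 were not called. That is 2 of 37, where 2.69% of all genes were called in this comparison, 0.961% higher and 1.73% lower. At an unadjusted p under 0.05 were 7 members, against 14.8% of all genes. In Smo/Smo against wild type, limma called 0 of 37, with 2 at an unadjusted p under 0.05 (Homer2 and Camk2a), against 0.371% of all genes called and 8.77% at that unadjusted p. In SmoA2 against Smo/Smo, Syt4 was the single member called, where the share over all genes was 2.56%, 1.02% higher and 1.54% lower. The log2 fold change of 33 of the 37 members lay within 0.25 of 0 in SmoA2 against wild type, as did that of 16914 of all 19147 genes. In Smo/Smo against wild type these counts were 35 of 37 members and 17672 of all genes, so both shares are near those over the whole array. The 95% interval lay within 0.5 of 0 for 34 members and 16267 of all genes in SmoA2, and for 35 members and 16861 of all genes in Smo/Smo.

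**Figure D1:**
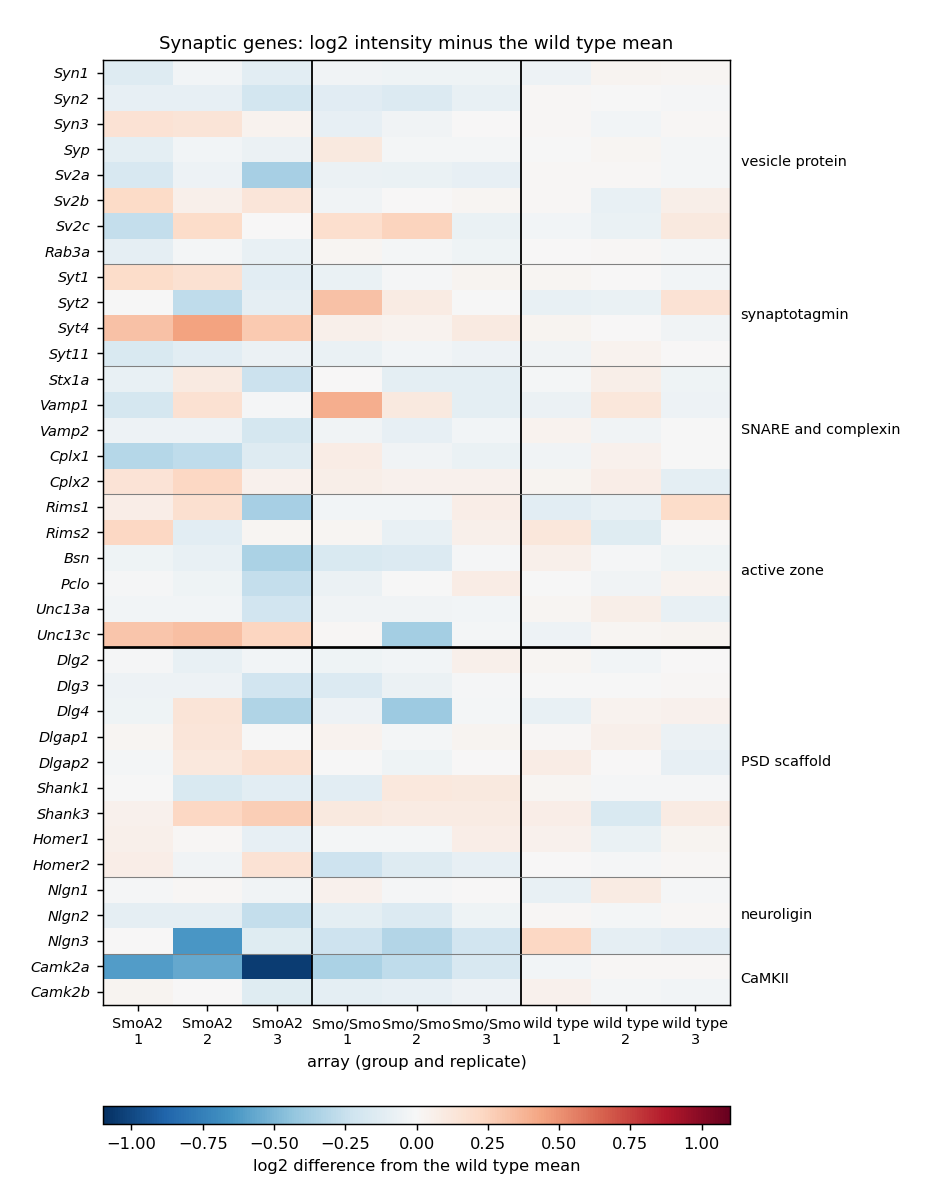
Heat map of the 37 measured synaptic genes (rows, ordered by role, presynaptic above the thick line) on the 9 arrays (columns, SmoA2, Smo/Smo and wild type), coloured by log2 intensity minus the wild type mean of the gene. Syt4 stands out above and Camk2a below the wild type mean on all 3 SmoA2 arrays, while most rows stay pale.

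The called presynaptic gene was Syt4, a synaptotagmin of dense core vesicles and the secretory pathway whose C2 domains bind calcium weakly or not at all. Its log2 intensity was 12.45, 12.57 and 12.42 in the SmoA2 mice, 12.19, 12.17 and 12.22 in the Smo/Smo mice, and 12.16, 12.13 and 12.09 in the wild type mice. All 3 SmoA2 values lay above all 6 others, and the lowest Smo/Smo value was just above the highest wild type value. Syt4 rose 1.28-fold in SmoA2 against wild type (log2 fold change 0.35 ± 0.06, SE, n = 3 per group, limma adjusted p = 0.0158). It was 1.22-fold higher in SmoA2 than in Smo/Smo (0.29 ± 0.06, adjusted p = 0.0419), a direct comparison of the lines. Smo/Smo against wild type gave 0.06 ± 0.06 (adjusted p = 0.831). The call against wild type ended without any of the wild type replicates 1, 2 or 3 (adjusted p = 0.0563, 0.0608 and 0.0620), at nearly the same fold change. Dropping single arrays in turn ended the call between the lines in 8 of 9 cases, at adjusted p of 0.0653 to 0.155. It held without SmoA2 replicate 3 (adjusted p = 0.0427). Fitting only the groups compared ended both calls (0.0696 against wild type and 0.117 between the lines). So did leaving out wild type replicate 3 and SmoA2 replicate 3 together (0.0670 in each). The call between the lines also ended with sex as a covariate (0.0721) and with the most variable probe set of each gene (0.0600).

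The other synaptotagmins gave no call. Syt1, the main calcium sensor of fast release, had a log2 fold change of 0.09 in SmoA2 and -0.02 in Smo/Smo, both against wild type. Syt2, the fast sensor of many hindbrain synapses, gave -0.13 in SmoA2 and 0.14 in Smo/Smo. Syt11, a synaptotagmin that does not bind calcium, gave -0.12 in SmoA2 with all 3 SmoA2 values below all wild type values, and -0.05 in Smo/Smo. Syt2 spread widely within the groups, with 7.66, 7.39 and 7.57 in SmoA2, 7.99, 7.75 and 7.66 in Smo/Smo, and 7.58, 7.60 and 7.82 in wild type.

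Of 8 vesicle protein genes, limma called 0 in either line against wild type. At an unadjusted p under 0.05 were 2 in SmoA2 (Syn2 and Sv2a), against 14.8% of all genes, and 0 in Smo/Smo, against 8.77%. SmoA2 and wild type did not overlap in 4 of the 8 (1 higher and 3 lower), against 19.1% of all genes. Smo/Smo and wild type did not overlap in 2 (both lower), against 15.9% of all genes. The synapsins tether vesicles to each other and to actin. Syn1 had a log2 fold change of -0.10 ± 0.06 in SmoA2, Syn2 -0.13 ± 0.06 and Syn3 0.11 ± 0.06, with adjusted p from 0.322 to 0.468. Syn2 lay below all wild type values in both lines, with -0.12 ± 0.06 in Smo/Smo (limma adjusted p = 0.590). Synaptophysin (Syp), an abundant vesicle membrane protein, gave -0.07 in SmoA2 and 0.02 in Smo/Smo. Rab3a, the GTPase of docking vesicles, gave -0.07 in SmoA2 and -0.01 in Smo/Smo. Its 9 arrays spanned 0.12 on the log2 scale, the narrowest range of the 37 members.

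The SV2 family, glycoproteins of the vesicle membrane, did not move as a block. Sv2a measured 11.19, 11.31 and 10.9997 in SmoA2, 11.30, 11.30 and 11.28 in Smo/Smo, and 11.38, 11.38 and 11.34 in wild type. The SmoA2 values lay below the wild type values, with replicate 3 lowest (log2 fold change -0.20 ± 0.08, adjusted p = 0.266). Sv2b gave 0.14 ± 0.06 in SmoA2 (adjusted p = 0.364) and -0.01 in Smo/Smo. Sv2c was low, with group means of 5.86 to 6.00, and gave -0.02 in SmoA2 and 0.12 in Smo/Smo.

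Complexins showed the same spread of signs. Cplx1, the complexin of mature fast synapses, measured 11.88, 11.92 and 12.05 in SmoA2, 12.28, 12.16 and 12.12 in Smo/Smo, and 12.16, 12.24 and 12.20 in wild type. All SmoA2 values lay below those of the other groups. The log2 fold change was -0.25 ± 0.07 in SmoA2 against wild type (unadjusted p = 0.00557, adjusted p = 0.115) and -0.24 ± 0.07 against Smo/Smo (adjusted p = 0.133), so it was not called. It passed in both comparisons with an intensity trend and robust eBayes (adjusted p = 0.0245 and 0.0312). It also passed when only genes above the median level were tested (adjusted p = 0.0400 and 0.0453). In the other 18 of 20 alternatives it was not called in either comparison, with limma adjusted p up to 0.278 and 0.340. Smo/Smo against wild type gave -0.01 ± 0.07. Cplx2, its close relative, gave 0.14 ± 0.07 in SmoA2 (adjusted p = 0.389) and 0.05 in Smo/Smo.

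None of the 3 SNARE genes measured was called. Syntaxin 1A (Stx1a) gave -0.07 in SmoA2 and -0.07 in Smo/Smo. Synaptobrevin 2 (Vamp2), the main vesicle SNARE of the forebrain, gave -0.10 in SmoA2 and -0.05 in Smo/Smo. Vamp1, prominent in hindbrain and spinal cord, was the most variable of them: 8.98, 9.34 and 9.16 in SmoA2, 9.57, 9.28 and 9.07 in Smo/Smo, and 9.10, 9.30 and 9.12 in wild type. The 3 groups overlapped in Vamp1, with fold changes of -0.01 in SmoA2 and 0.13 in Smo/Smo.

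Among active zone genes, Unc13c stood out. It encodes Munc13-3, a vesicle priming protein found mainly in the cerebellum, where granule cells express it. Its log2 intensity was 9.71, 9.74 and 9.64 in SmoA2, 9.41, 9.03 and 9.38 in Smo/Smo, and 9.35, 9.42 and 9.44 in wild type. The SmoA2 values lay above all others, and Smo/Smo replicate 2 was the lowest array. The log2 fold change was 0.42 ± 0.10 in SmoA2 against Smo/Smo (adjusted p = 0.0614) and 0.29 ± 0.10 against wild type (unadjusted p = 0.0150, adjusted p = 0.190), so neither passed. Against Smo/Smo it passed with an intensity trend and robust eBayes (adjusted p = 0.0212) and among genes above the median level (0.0210). In the other 18 of 20 alternatives it did not pass against Smo/Smo (limma adjusted p up to 0.162). Against wild type it passed in none of the 20. Its other probe sets pointed the same way, with 0.25 and 0.13 in SmoA2 against wild type and 0.27 and 0.22 against Smo/Smo.

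The remaining 5 active zone genes gave no call in any comparison. Unc13a, the main priming protein of the forebrain, had a log2 fold change of -0.09 in SmoA2 and -0.04 in Smo/Smo. Bassoon (Bsn) and Piccolo (Pclo), the giant scaffolds of the active zone, gave -0.16 and -0.11 in SmoA2, and -0.11 and 0.00 in Smo/Smo. Rims1 and Rims2, which tether vesicles and calcium channels, gave -0.04 and 0.05 in SmoA2 and 0.00 each in Smo/Smo.

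**Figure D2:**
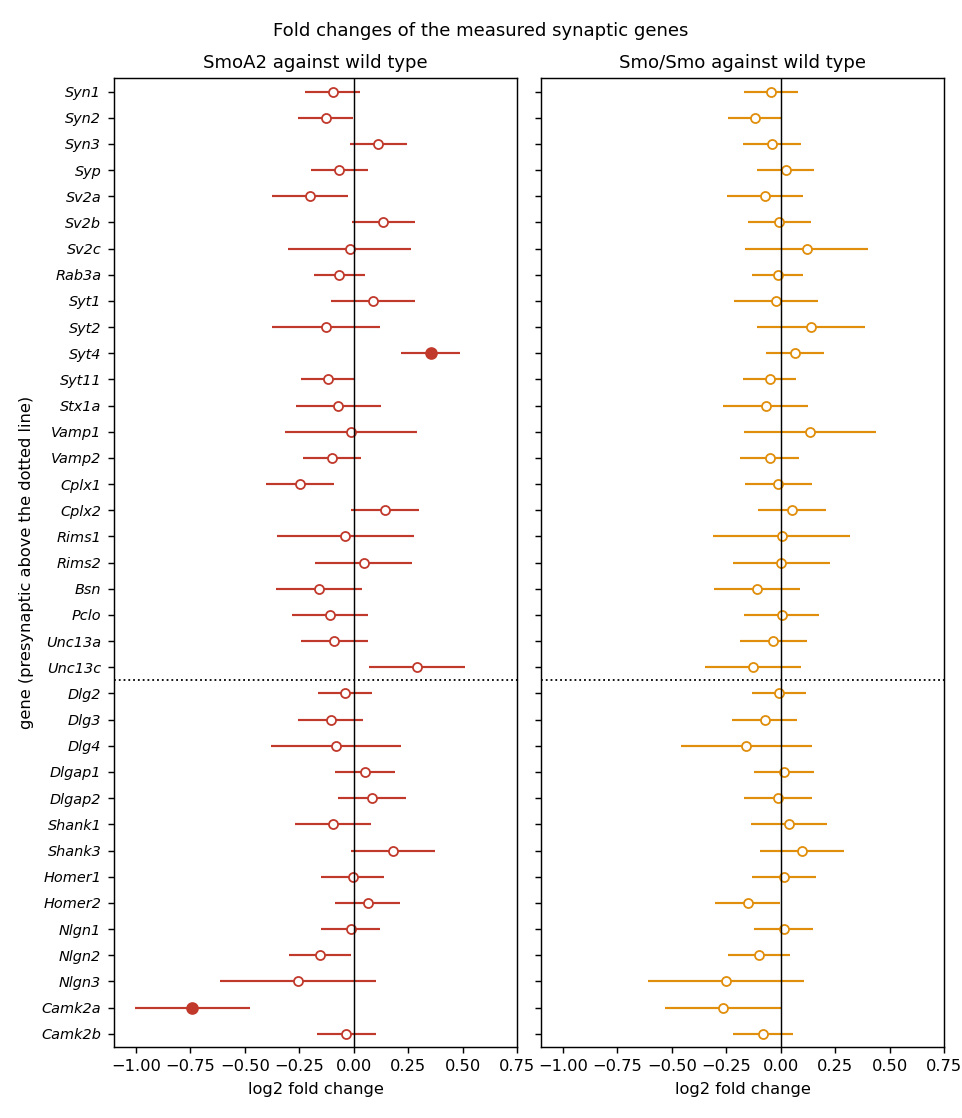
Log2 fold change (points, filled where called) with its 95% interval (lines) for the 37 measured genes, in SmoA2 against wild type (left) and Smo/Smo against wild type (right); presynaptic genes are above the dotted line. Camk2a, at -0.74, and Syt4, at 0.35, are the filled points on the left, and no point is filled on the right.

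Regulatory sequence was compared in RefSeq promoter windows (GRCm38.p6, 250 bases before to 50 after the annotated gene start), which matched 29 of the 37 members with 45 windows. Syn3, Syt4, Vamp2, Rims2, Dlgap2, Shank1, Nlgn3 and Camk2a had no entry. Several sets of letters were searched on both strands. The letters GACCACCCA, the core bound by GLI factors of the Shh pathway, were in the windows of 0 of 29 members and of 0.289% of 27025 genes. TTCAGCACC, the first part of the element bound by the repressor REST, was in those of 3 members (Syn1, Nlgn1 and Unc13a) and of 0.433% of genes. TGACGTCA, the cyclic AMP response element, was in Syn1 and in 2.03% of genes. The E-box forms CAGCTG and CAGATG, which factors of the Atoh1 and Neurod1 family can bind, were in 14 and 3 of 29 members, and in 18.3% and 19.2% of genes. Members had more windows per gene than all genes, which gives them more places to match. Counted by window, CAGCTG was in 14 of 45 member windows and 16.3% of all 32851. CAGATG was in 3 of 45 and 17.2%, and TTCAGCACC in 3 of 45 and 0.371%. TGACGTCA and CAGCTG read the same on both strands. These matches describe letters only. Shown are Syn1, which held both the REST and the cyclic AMP letters and whose level was steady, and Cplx1 and Unc13c, which differed from wild type in opposite directions in SmoA2 without a call. Capitals mark the letters searched, and no 2 matches overlapped in these windows.
Syn1, chrX:20920869-20921168, minus strand: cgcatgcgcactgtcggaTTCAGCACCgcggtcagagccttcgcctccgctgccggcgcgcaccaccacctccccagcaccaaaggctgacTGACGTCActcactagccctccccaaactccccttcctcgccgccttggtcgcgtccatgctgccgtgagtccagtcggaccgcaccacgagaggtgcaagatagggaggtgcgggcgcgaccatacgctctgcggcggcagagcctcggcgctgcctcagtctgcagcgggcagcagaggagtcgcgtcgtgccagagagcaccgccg
Cplx1, chr5:108549978-108550277, minus strand: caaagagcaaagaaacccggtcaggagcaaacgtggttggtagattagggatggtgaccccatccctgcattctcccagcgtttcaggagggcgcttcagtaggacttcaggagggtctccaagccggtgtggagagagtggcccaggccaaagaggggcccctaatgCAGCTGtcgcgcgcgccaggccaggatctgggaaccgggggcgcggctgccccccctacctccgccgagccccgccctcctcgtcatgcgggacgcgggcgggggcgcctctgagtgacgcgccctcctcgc
Unc13c, chr9:73968988-73969287, minus strand: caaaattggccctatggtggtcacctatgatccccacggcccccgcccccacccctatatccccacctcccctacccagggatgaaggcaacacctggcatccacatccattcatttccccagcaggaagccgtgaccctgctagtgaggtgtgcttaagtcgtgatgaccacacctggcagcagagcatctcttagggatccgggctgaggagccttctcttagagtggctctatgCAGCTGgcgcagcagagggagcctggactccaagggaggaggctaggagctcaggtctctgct
Counted back from the gene start, the REST letters began at base -232 and the cyclic AMP letters at -159 in Syn1, and CAGCTG began at -82 in Cplx1 and at -13 in Unc13c.

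The called postsynaptic gene was Camk2a, the alpha subunit of CaMKII, which in the cerebellum is known mainly from Purkinje cells. Its log2 intensity was 7.95, 8.004 and 7.52 in SmoA2, 8.22, 8.29 and 8.39 in Smo/Smo, and 8.53, 8.58 and 8.58 in wild type. The 3 groups did not overlap, with SmoA2 lowest and wild type highest. Camk2a fell in SmoA2 against wild type and was 1.67-fold lower (log2 fold change -0.74 ± 0.12, SE, n = 3 per group, limma adjusted p = 0.0122). The call ended without wild type replicate 2 (adjusted p = 0.0566), while without SmoA2 replicate 3, the lowest array, it held at -0.59 (adjusted p = 0.00544). SmoA2 against Smo/Smo gave -0.47 ± 0.12 (adjusted p = 0.0779), and Smo/Smo against wild type gave -0.27 ± 0.12 (unadjusted p = 0.0498, adjusted p = 0.569). SmoA2 against Smo/Smo passed with an intensity trend and robust eBayes (adjusted p = 0.0335) and among genes above the median level (0.0295). In the other 18 of 20 alternatives this comparison did not pass (limma adjusted p up to 0.822).

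The fall of Camk2a rests on 1 of its 5 probe sets. That probe set was used for its higher mean level, but the next brightest was almost equal to it. Group means in SmoA2, Smo/Smo and wild type were 7.82, 8.30 and 8.56 in the one used. In the next brightest they were 8.11, 8.30 and 8.27. The next brightest read 8.06, 8.29 and 7.98 in SmoA2, 8.33, 8.29 and 8.29 in Smo/Smo, and 8.34, 8.24 and 8.23 in wild type. SmoA2 and wild type overlapped there, and the log2 fold change was -0.16 (adjusted p = 0.445 over all probe sets). The other 3 gave 0.03, -0.02 and -0.05, with group means from 4.18 to 5.77. Averaged over all 5, Camk2a gave -0.19 (adjusted p = 0.334) and was not called. Which exons each probe set covers was not analysed here. Camk2b, the beta subunit, which granule and Purkinje cells both make, gave -0.03 ± 0.06 in SmoA2 (adjusted p = 0.849) and -0.08 in Smo/Smo.

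**Figure D3:**
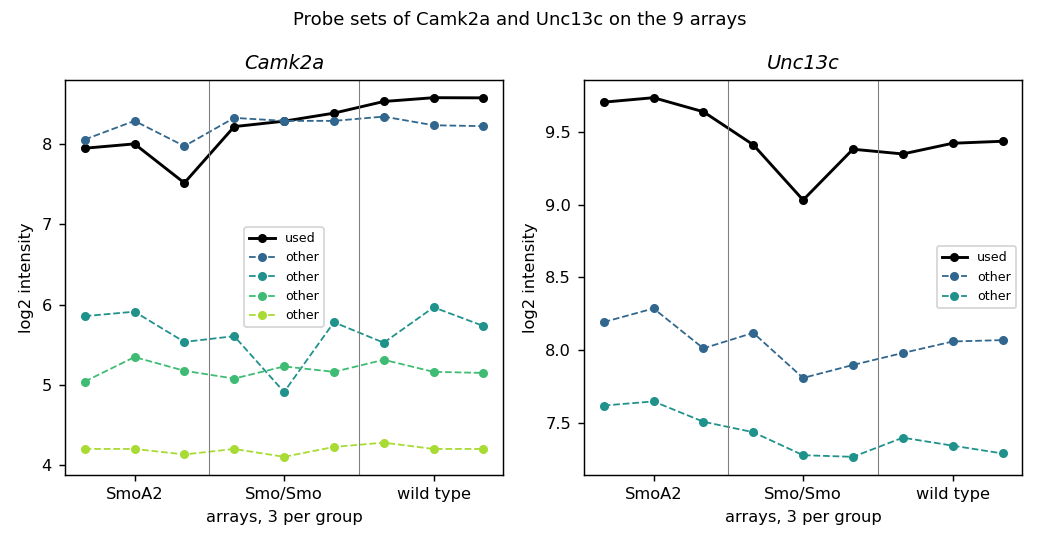
Log2 intensity of each probe set of Camk2a (5, left) and Unc13c (3, right) on the 9 arrays, in the order SmoA2, Smo/Smo and wild type; the solid black line is the probe set used and dashed lines are the others. The Camk2a probe set used is lowest in SmoA2, at 7.95, 8.004 and 7.52, while the next brightest stays between 7.98 and 8.34 throughout.

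Scaffold genes of the postsynaptic density gave 0 calls among 9 measured in limma. At an unadjusted p under 0.05 were none in SmoA2, against 14.8% of all genes, and 1 in Smo/Smo (Homer2), against 8.77%. Dlg4, which encodes PSD-95, gave a log2 fold change of -0.08 in SmoA2 and -0.16 in Smo/Smo at a low level, with group means of 6.02 to 6.17. Its relatives Dlg2 (PSD-93) and Dlg3 (SAP102, prominent in young neurons) gave -0.04 and -0.11 in SmoA2 and -0.01 and -0.08 in Smo/Smo. Dlgap1 and Dlgap2, which link PSD-95 to Shank, gave 0.05 and 0.08 in SmoA2, and 0.02 and -0.01 in Smo/Smo. Shank1 and Shank3, the master scaffolds beneath them, were near background with group means of 5.02 to 5.41. They gave -0.09 and 0.18 in SmoA2 and 0.04 and 0.10 in Smo/Smo.

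Homer proteins join Shank to metabotropic glutamate receptors. Homer2 measured 10.67, 10.56 and 10.75 in SmoA2, 10.37, 10.46 and 10.50 in Smo/Smo, and 10.60, 10.58 and 10.61 in wild type. The Smo/Smo values were the lowest, below both other groups. The log2 fold change was 0.22 ± 0.07 in SmoA2 against Smo/Smo (unadjusted p = 0.00934, adjusted p = 0.153) and 0.06 ± 0.07 in SmoA2 against wild type, and neither was called. Homer1 gave -0.01 in SmoA2 and 0.01 in Smo/Smo.

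The 3 neuroligins gave no call. Nlgn2, the neuroligin of inhibitory synapses, read 11.79, 11.79 and 11.63 in SmoA2, 11.78, 11.74 and 11.84 in Smo/Smo, and 11.90, 11.87 and 11.90 in wild type. Both mutant groups lay below wild type in each array, at -0.15 ± 0.06 in SmoA2 (adjusted p = 0.293) and -0.10 ± 0.06 in Smo/Smo (0.722). Nlgn1, of excitatory synapses, gave -0.01 in SmoA2 and 0.01 in Smo/Smo. Nlgn3 was low and variable, with SDs of 0.34 in SmoA2, 0.06 in Smo/Smo and 0.20 in wild type, and gave -0.26 ± 0.16 in SmoA2 and -0.25 ± 0.16 in Smo/Smo.

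**Figure D4:**
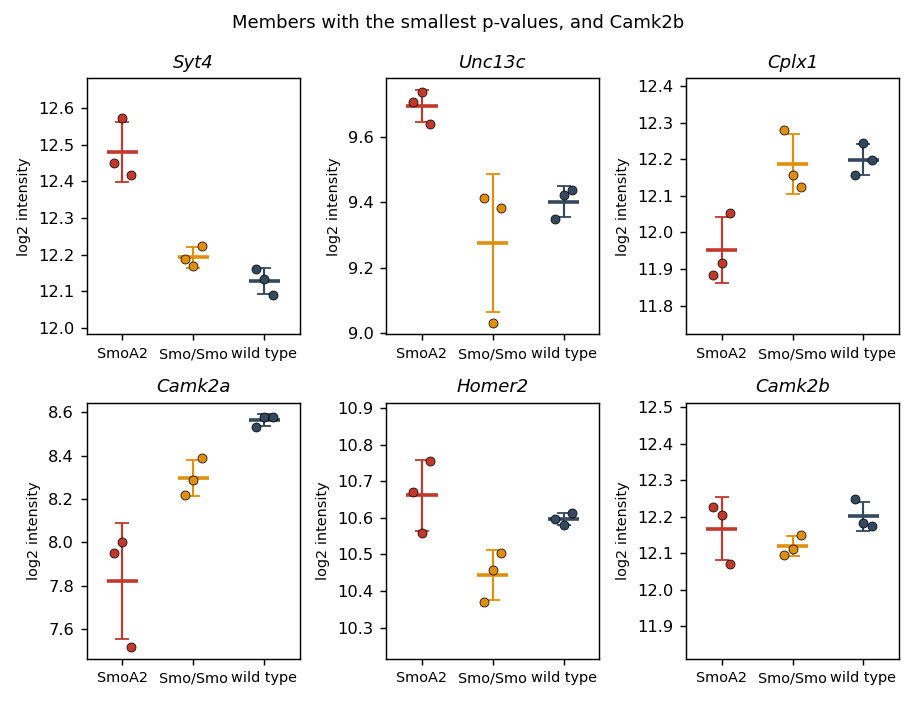
Log2 intensity of 6 members in the 3 mice of each group (points), with the group mean (wide bar) and SD (error bar); each panel has its own axis, which does not start at 0. Syt4 and Unc13c are highest and Cplx1 and Camk2a lowest in SmoA2, Homer2 is lowest in Smo/Smo, and SmoA2 overlaps both other groups in Camk2b.

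The presynaptic and postsynaptic genes were set side by side, and the difference between them was not tested. In SmoA2 against wild type the median log2 fold change was -0.07 for 23 presynaptic genes, -0.04 for 14 postsynaptic genes and 0.01 for all genes. In Smo/Smo against wild type the medians were -0.01, -0.04 and 0.01, and in SmoA2 against Smo/Smo they were -0.05, -0.01 and -0.00300. Below 0 were 16 of 23 presynaptic and 10 of 14 postsynaptic genes in SmoA2 against wild type, where 47.9% of all genes were below 0. Smo/Smo against wild type had 14 of 23 and 9 of 14 below 0, and 47.8% of all genes. Both comparisons use the same wild type arrays. In SmoA2 against wild type the groups did not overlap in 10 presynaptic genes (3 higher and 7 lower; 43.5%) and 3 postsynaptic genes (all lower; 21.4%), together 35.1% of the members, against 19.1% of all genes. In Smo/Smo against wild type the order of the shares was the other way round, with 3 presynaptic (1 higher and 2 lower; 13.0%) and 6 postsynaptic genes (all lower; 42.9%), together 24.3% of the members, against 15.9% of all genes. In SmoA2 against Smo/Smo they were 8 members (5 higher and 3 lower), 21.6%, against 18.2% of all genes.

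SmoA2 replicate 3 was low for many of these genes. It was the lowest of its group in 21 of 37 members, while it was lowest in 32.8% of all genes. The mean deviation of the 37 members from their 9-array means was 0.00, 0.02 and -0.08 in SmoA2 replicates 1, 2 and 3, and 0.00, -0.03 and 0.01 in the Smo/Smo replicates. In wild type it was 0.03, 0.02 and 0.03. Without SmoA2 replicate 3 the medians in SmoA2 against wild type were -0.03 for presynaptic and 0.01 for postsynaptic genes. This array also had the lowest mean correlation with its group (0.995) and the lowest array weight (0.386).

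Of the wider release machinery, 53 of 57 further genes were measured, and 3 rose and 1 fell in SmoA2 against wild type, where 2.69% of all genes were called. At an unadjusted p under 0.05 were 16 of the 53, against 14.8% of all genes, and the groups did not overlap in 18 (34.0%), against 19.1% of all genes. Doc2a, a calcium sensor of spontaneous and asynchronous release, measured 10.12, 10.01 and 10.01 in SmoA2, 9.60, 9.50 and 9.48 in Smo/Smo, and 9.52, 9.55 and 9.45 in wild type. It rose 1.45-fold against wild type (log2 fold change 0.54 ± 0.06, limma adjusted p = 0.00260) and was 0.52 ± 0.06 above Smo/Smo (adjusted p = 0.00356). Both Doc2a calls held in each of the 20 alternatives run. Syt6 had 9.89, 9.96 and 9.64 in SmoA2, 9.21, 9.30 and 9.07 in Smo/Smo, and 9.31, 9.02 and 9.24 in wild type. It rose 1.56-fold (0.64 ± 0.11, adjusted p = 0.0158), and its other probe set gave 0.59 (adjusted p = 0.0164 over all probe sets). The Syt6 call against wild type ended when SmoA2 replicate 1 or 2 or wild type replicate 2 was dropped, with adjusted p reaching 0.0623. Against Smo/Smo (0.64 ± 0.11, adjusted p = 0.0180) it ended without SmoA2 replicate 1 or Smo/Smo replicate 1 or 3, with adjusted p reaching 0.0745. Rph3a (rabphilin), a Rab3 effector, rose by 0.30 ± 0.06 (adjusted p = 0.0461), a call that ended in 8 of 9 cases when single arrays were dropped, with adjusted p reaching 0.178. It held without SmoA2 replicate 1 (0.0496).

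The release gene that fell was Slc32a1, the vesicular transporter of GABA and glycine. It measured 9.26, 9.45 and 9.50 in SmoA2, 10.02, 9.93 and 9.75 in Smo/Smo, and 9.79, 9.95 and 9.85 in wild type. The log2 fold change was -0.46 ± 0.09 against wild type (adjusted p = 0.0313) and -0.50 ± 0.09 against Smo/Smo (0.0251). The SmoA2 values lay below all others. Leaving out 1 array ended the call against wild type in 6 of 9 fits, those without SmoA2 replicate 1 or 2, Smo/Smo replicate 2 or any wild type replicate (adjusted p up to 0.116). Against Smo/Smo it ended in 3, those without SmoA2 replicate 1 or Smo/Smo replicate 1 or 2 (up to 0.103).

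Of 38 further postsynaptic genes 32 were measured, and 1 fell in SmoA2 against wild type, a share near the 2.69% of all genes called. At an unadjusted p under 0.05 were 8 of the 32, against 14.8% of all genes. The gene that fell was Slitrk1, a synaptic adhesion gene, at -0.26 ± 0.05 (adjusted p = 0.0419), and the call ended whichever of the 9 arrays was dropped (adjusted p 0.0554 to 0.163). Between the lines 1 of the 32 was higher and 1 lower in SmoA2, where 2.56% of all genes were called. Lrrtm3, a neurexin-binding adhesion gene, was higher in SmoA2 (0.35 ± 0.07, adjusted p = 0.0359), and its other probe sets gave 0.35 and 0.05. Homer3, the Homer form abundant in Purkinje cells, was lower in SmoA2 than in Smo/Smo (-0.31 ± 0.06, adjusted p = 0.0410). Leaving out 1 array ended the Lrrtm3 call in 7 and the Homer3 call in 8 of 9 fits (adjusted p up to 0.125 and 0.155), and Lrrtm3 held without SmoA2 replicate 3 or wild type replicate 3. Homer3 held without SmoA2 replicate 3. In Smo/Smo against wild type limma called 0 of the 53 release genes and 0 of the 32 postsynaptic genes, where 0.371% of all genes were called. At an unadjusted p under 0.05 were 0 and 2 of them, against 8.77% of all genes.

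**Figure D5:**
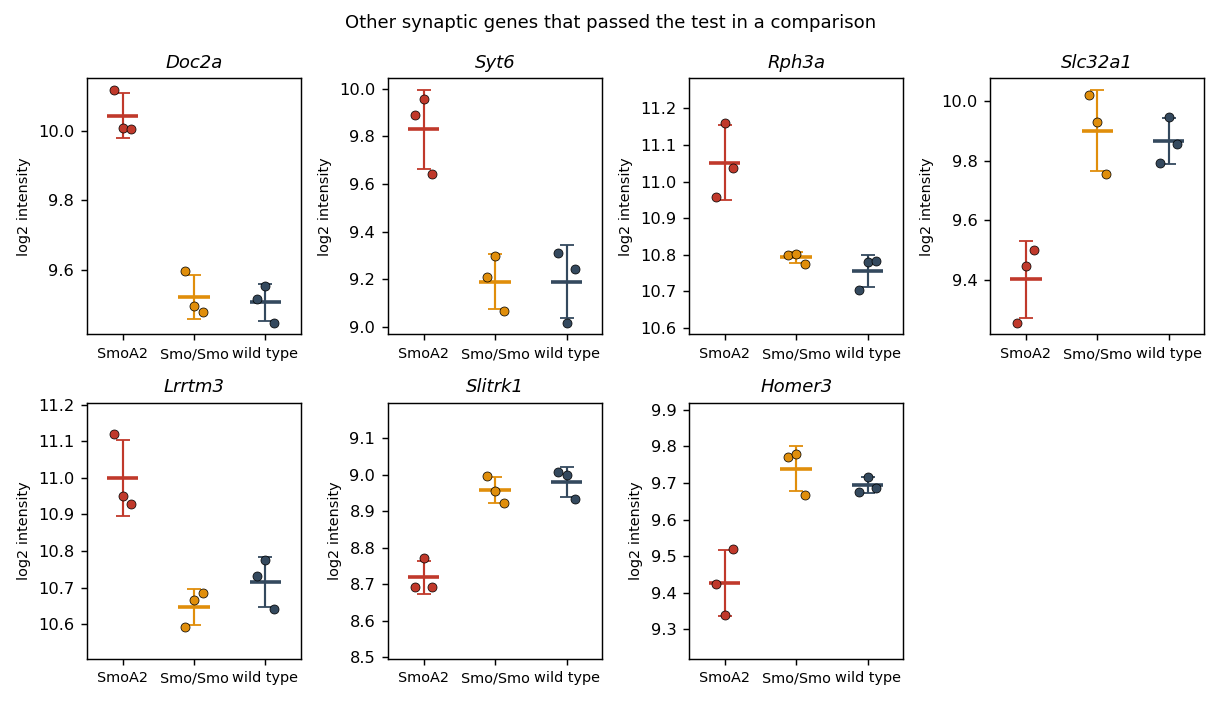
Log2 intensity of 7 further synaptic genes in the 3 mice of each group (points), with the group mean (wide bar) and SD (error bar); each panel has its own axis, which does not start at 0. Doc2a, Syt6, Rph3a and Lrrtm3 are highest and Slc32a1, Slitrk1 and Homer3 lowest in SmoA2, without overlap with the other groups.

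Markers of several cell types also differed between these arrays, while few markers of others were called. Over all genes, 0.961% were called higher and 1.73% lower in SmoA2 against wild type, the shares to set beside the counts that follow. Of 14 Purkinje cell genes measured, 4 were lower in SmoA2 than in wild type and none higher, with a median log2 fold change of -0.44. Their mean level ran from 10.10 to 10.21 in SmoA2, 10.50 to 10.54 in Smo/Smo and 10.56 to 10.58 in wild type. Of 10 markers of GABAergic interneurons, 5 were lower, with mean levels of 8.96 to 8.97 in SmoA2, 9.30 to 9.37 in Smo/Smo and 9.36 to 9.39 in wild type. Slc32a1 is itself in that list. The Purkinje and GABAergic lists share Gad2, Lhx1 and Lhx5, and Lhx5 is among the lower genes counted in each. Of 12 markers of granule neuron progenitors, 7 were higher and 1 lower, with mean levels of 11.26 to 11.41 in SmoA2, 11.16 to 11.20 in Smo/Smo and 11.06 to 11.12 in wild type. None of the markers in these 3 lists was at background. Meningeal genes, of which 8 of 11 were lower, had mean levels of 9.11 to 9.43 in SmoA2, 9.71 to 9.76 in Smo/Smo and 9.82 to 9.87 in wild type. Genes of Bergmann glia and astrocytes, of which 4 of 13 were lower, had 10.58 to 10.66 in SmoA2, 10.93 to 10.96 in Smo/Smo and 10.99 to 11.03 in wild type. Of 17 broad neuronal genes such as Map2 and Stmn2, limma called 0 in SmoA2 against wild type, with a median of -0.07. At an unadjusted p under 0.05 were 4 of them, against 14.8% of all genes. Of 18 genes of differentiating granule neurons, 1 was higher in SmoA2 (Grin2c, also higher in Smo/Smo) and none lower, with a median of -0.06. Of 9 genes of unipolar brush and nuclear neurons 1 was lower, and of 9 forebrain neuron genes 1 was higher. None of 8 oligodendrocyte lineage genes was called. Choroid plexus genes were higher in both lines without overlap in 11 of 11 genes, with a median log2 fold change of 1.43 in SmoA2 and 1.72 in Smo/Smo. Limma called 0 of the choroid plexus genes in either line, where 0.371% of all genes were called in Smo/Smo. At an unadjusted p under 0.05 were 10 in SmoA2 and 9 in Smo/Smo, against 14.8% and 8.77% of all genes. Their mean level was 9.01 to 9.26 in SmoA2, 9.30 to 9.57 in Smo/Smo, and 8.54, 8.45 and 6.26 in wild type replicates 1, 2 and 3. All 3 wild type arrays thus lay below all 6 mutant arrays, with replicate 3 far lowest. Of 21 markers of brainstem and midbrain neurons, 3 were higher in SmoA2 against wild type and none lower, while 9 lay at or under background in SmoA2, 10 in Smo/Smo and 11 in wild type. The list averaged 5.35 to 5.82 in SmoA2, 5.14 to 5.34 in Smo/Smo and 5.09 to 5.41 in wild type. Isl1, a LIM homeobox factor of motor and sensory neurons, averaged 9.05 in SmoA2, 7.28 in Smo/Smo and 5.98 in wild type (log2 fold change 3.07 ± 0.14 in SmoA2 and 1.29 ± 0.14 in Smo/Smo). Pou4f1, a POU factor of sensory neurons, averaged 6.96 in SmoA2, 5.18 in Smo/Smo and 4.77 in wild type (2.19 ± 0.21 in SmoA2). Its wild type mean was under the background level of 4.996, so that fold change is only a bound. Of the 21 genes in this list, 6 had a fold change below 0 in SmoA2 against wild type and 11 in Smo/Smo against wild type. In whole cerebellum, fewer cells of a type and less RNA per cell cannot be told apart, and the part of these shifts in the changes of Syt4, Camk2a, Doc2a, Syt6, Rph3a, Slc32a1, Slitrk1, Lrrtm3 and Homer3 was not tested.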

How the data were processed

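RNA of 9 mice was hybridised to Affymetrix arrays. The authors deposited a linear intensity per probe set, summarised with RMA per the submitters' processing notes; its version is not given in the sources used here. The log2 of each value was taken. Of 38385 probe sets, 24478 carried 1 gene symbol in the platform annotation, 65 several and 13842 none. Each gene was read from its brightest probe set by mean log2 over all arrays. All 19147 genes were fitted in limma 3.58.1 (R 4.3.3), with lmFit and eBayes, a mean per group and no covariate. Fold changes carry the standard error of that fit. Genes with an adjusted p under 0.05 were called. The pipeline was tested on simulated data. Figures used matplotlib 3.10.9 in Python 3.11.15.

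The members and lists were chosen with earlier results of these data known. Values of every array are given for members called or with an unadjusted p under 0.01 in any comparison, and for Sv2a, Syt2, Vamp1 and Nlgn2, chosen after their values were seen. Other synaptic genes were named if called, at most 6 a list and comparison. Nothing in the labels says whether the mice of a group came from separate litters, so p-values measure the spread between these mice. The number of arrays limits the precision. Alternatives were other choices of probe set, a filter on low values, other normalizations, an intensity trend, array weights, fits of the groups compared, sex as a covariate, a threshold of 0.01 and leaving out each array.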

Additional observations from a re-analysis of the deposited data

Results flagged for a closer look

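In 6 synaptic genes the effect of SmoA2 differed from that of Smo/Smo by the direct limma comparison of the lines. They came from 37 members, 53 further release genes and 32 further postsynaptic genes. Of all genes, 2.56% were called in this comparison. The difference, SmoA2 minus Smo/Smo on the log2 scale, was 0.29 for Syt4, 0.52 for Doc2a, 0.64 for Syt6, 0.35 for Lrrtm3, -0.50 for Slc32a1 and -0.31 for Homer3. Both effects use the same wild type arrays, which cancel in this difference. With single arrays dropped in turn, the call held in 9 of 9 fits for Doc2a and in 6 for Syt6 and Slc32a1. It held in only 2 fits for Lrrtm3 and in 1 for Syt4 and Homer3. The source of the Smo/Smo mice and their genotype cannot be told apart in this difference.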

How the results depend on the processing

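No paired analysis was possible because the titles give animal codes and no replicate number shared between groups. In SmoA2 against wild type, 515 genes and 2 members were called. Only the groups compared gave 235 genes and 1 member, a threshold of 0.01 gave 187 and 0, and the mean of all probe sets gave 1 member. Leaving out wild type replicate 3 and SmoA2 replicate 3 together, chosen after seeing the data, gave 215 and 1, with a postsynaptic median of -0.00131. In Smo/Smo against wild type, 71 genes were called, with 162 under array weights, 42 with only the groups compared, 42 with sex as a covariate, 19 at the threshold of 0.01 and 38 without both arrays, and 0 members throughout. There the presynaptic median was -0.00669 with centred arrays, -0.0253 with array weights and -0.0275 without both arrays. The postsynaptic median was -0.0850 with the most variable probe set and -0.0753 among genes above the median level. In SmoA2 against Smo/Smo, 490 genes and 1 member were called. Genes above the median level gave 757 and 4, an intensity trend with robust eBayes 795 and 4, only the groups compared 231 and 0, the threshold of 0.01 142 and 0, and both arrays left out 296 and 0. Sex as a covariate gave 0 members, as did the most variable probe set. The presynaptic median there was -0.0177 with array weights and 0.00515 without both arrays.

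With single arrays dropped, SmoA2 against wild type had 234 to 445 genes and 0 to 2 members called (0 without wild type replicate 2), presynaptic medians of -0.118 to -0.0315 and postsynaptic medians of -0.0579 to 0.00817. Smo/Smo against wild type had 21 to 65 genes and 0 to 0 members, with medians of -0.0360 to -0.0105 and -0.0677 to -0.0225. SmoA2 against Smo/Smo had 170 to 467 genes and 0 to 1 members, with medians of -0.0842 to 0.00515 and -0.0371 to 0.0233. The cause of these moves was not tested beyond the fewer samples or genes that the settings leave. Shank1 and Shank3 lay near background, which limits what their values show.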
